A study of Mus musculus with 6 samples.

Results

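The genes described here encode the proteins of the mitochondrial ribosome, and they were compared between hearts of old and young mice. Members were the gene models named Mrpl or Mrps followed by a digit, without the pseudogenes, which gave 78 of the 44200 gene models in the count table. Of these 78, 48 belonged to the large subunit (Mrpl) and 30 to the small subunit (Mrps). The old group was 3 hearts of 22-month-old male C57BL/6 mice and the young group was 3 hearts of 2-month-old male C57BL/6 mice. All animals received normal chow, and the labels give no engineered allele and no drug. The design text describes the replicates of each age as independent biological samples. Bulk RNA-seq of total RNA measured each heart as 1 library, so the values average over all cell types in the tissue. In such a sample, fewer cells of a type and less RNA per cell cannot be told apart. The extraction text in the labels speaks of NRVMs, whereas the tissue label says heart.

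The mitochondrial ribosome translates the few messenger RNAs that mitochondrial DNA encodes, all of which specify membrane subunits of the respiratory chain and the ATP synthase. Its ribosomal RNAs come from mitochondrial DNA, but every one of its proteins is encoded in the nucleus, made in the cytosol and imported. Some of these proteins descend from bacterial ribosomal proteins, and others were added during the evolution of mitochondria. Heart muscle depends on oxidative phosphorylation, and human mutations in several of these genes cause cardiomyopathy.

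Total counts per library ranged from 13673856 to 15583364. Levels are given as CPM (counts scaled to a common library size), with TMM factors, and a gene was called when its edgeR quasi-likelihood test gave a Benjamini-Hochberg adjusted p under 0.05 over all 14413 genes tested. Of the 78 members, 76 passed the filter on low counts. All 12 cardiomyocyte marker genes were detected. Among them, 4 were lower in old hearts (Actc1, Myh6, Atp2a2 and Pln) and 1 was higher (Myl2), and their summed level was 61233, 64264 and 57648 CPM in old 1, 2 and 3, against 76298, 67957 and 69619 CPM in young 1, 2 and 3. Myh6 was the largest part of this sum, with a mean of 13464 CPM in old and 22616 CPM in young hearts. By log2 fold change, 6 of the 12 markers were below 0 and 6 above it, with a median of −0.06. Of the macrophage and leukocyte markers tested, 6 of 12 were higher in old hearts, with a summed level of 786, 551 and 545 CPM in old 1, 2 and 3, against 352, 428 and 408 CPM in young 1, 2 and 3. Summed endothelial markers were at 2672, 2873 and 2754 CPM in old 1, 2 and 3, against 3126, 3507 and 3017 CPM in young 1, 2 and 3, with 3 of 10 lower in old hearts. Lower markers numbered 2 of 9 for fibroblasts, 2 of 9 for smooth muscle and pericytes and 1 of 5 for red blood cells, and 4 of 5 adipocyte markers were under the filter. Over all genes tested 6.36% were lower and 8.72% higher. With 1 library left out, lower markers ran from 1 to 5 for cardiomyocytes and from 1 to 4 for endothelium. They ran from 0 to 6 for fibroblasts, 0 to 3 for smooth muscle and pericytes and 0 to 4 for red blood cells. Higher macrophage and leukocyte markers ran from 4 to 6. The part these differences have in the results on the members was not tested.

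In old hearts 14 of the 76 tested members were lower and 0 were higher. These 14 are 18.4% of the members, whereas 6.36% of all genes tested were lower, 8.72% were higher and 15.1% were called in either direction. At an unadjusted p under 0.05, 21 large and 7 small subunit members were lower and 0 were higher, against 14.6% of all genes tested lower and 17.8% higher. DESeq2 and limma-voom each called 14 members lower and 0 higher, against 8.04% (DESeq2) and 6.38% (limma-voom) of all genes tested called lower. Large subunit members supplied 9 of 47 (19.1%) and small subunit members 5 of 29 (17.2%). The median log2 fold change, old over young, was −0.25 over the large subunit and −0.09 over the small subunit, against 0.02 over all genes tested. Fold changes of the large subunit ran from −0.80 to 0.35, with 35 of 47 below 0, and those of the small subunit from −0.72 to 0.26, with 18 of 29 below 0. All 3 old libraries lay below all 3 young libraries for 25 large subunit members (53.2%) and 7 small subunit members (24.1%), against 18.4% of all genes tested. The reverse order held for 3 large subunit members (6.38%) and 0 small subunit members, against 18.8% of all genes tested. Whether the subunits differed from each other was not tested. The counts changed when 1 library was left out. Without old 1, 22 large and 7 small subunit members were lower and 4 large ones higher. Without old 2 the lower ones were 7 and 2, and without old 3 they were 1 and 0. Without young 1, young 2 or young 3 they were 2 and 0, 1 and 0, and 1 and 0. Lower calls over all genes moved as well, from 917 with every library to 2609, 603 and 321 without old 1, 2 and 3. Without young 1, 2 and 3 the lower calls over all genes were 184, 190 and 226. With library totals alone as the scale, 5 large and 3 small subunit members were lower, with 624 lower calls over all genes.

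**Figure D1:**
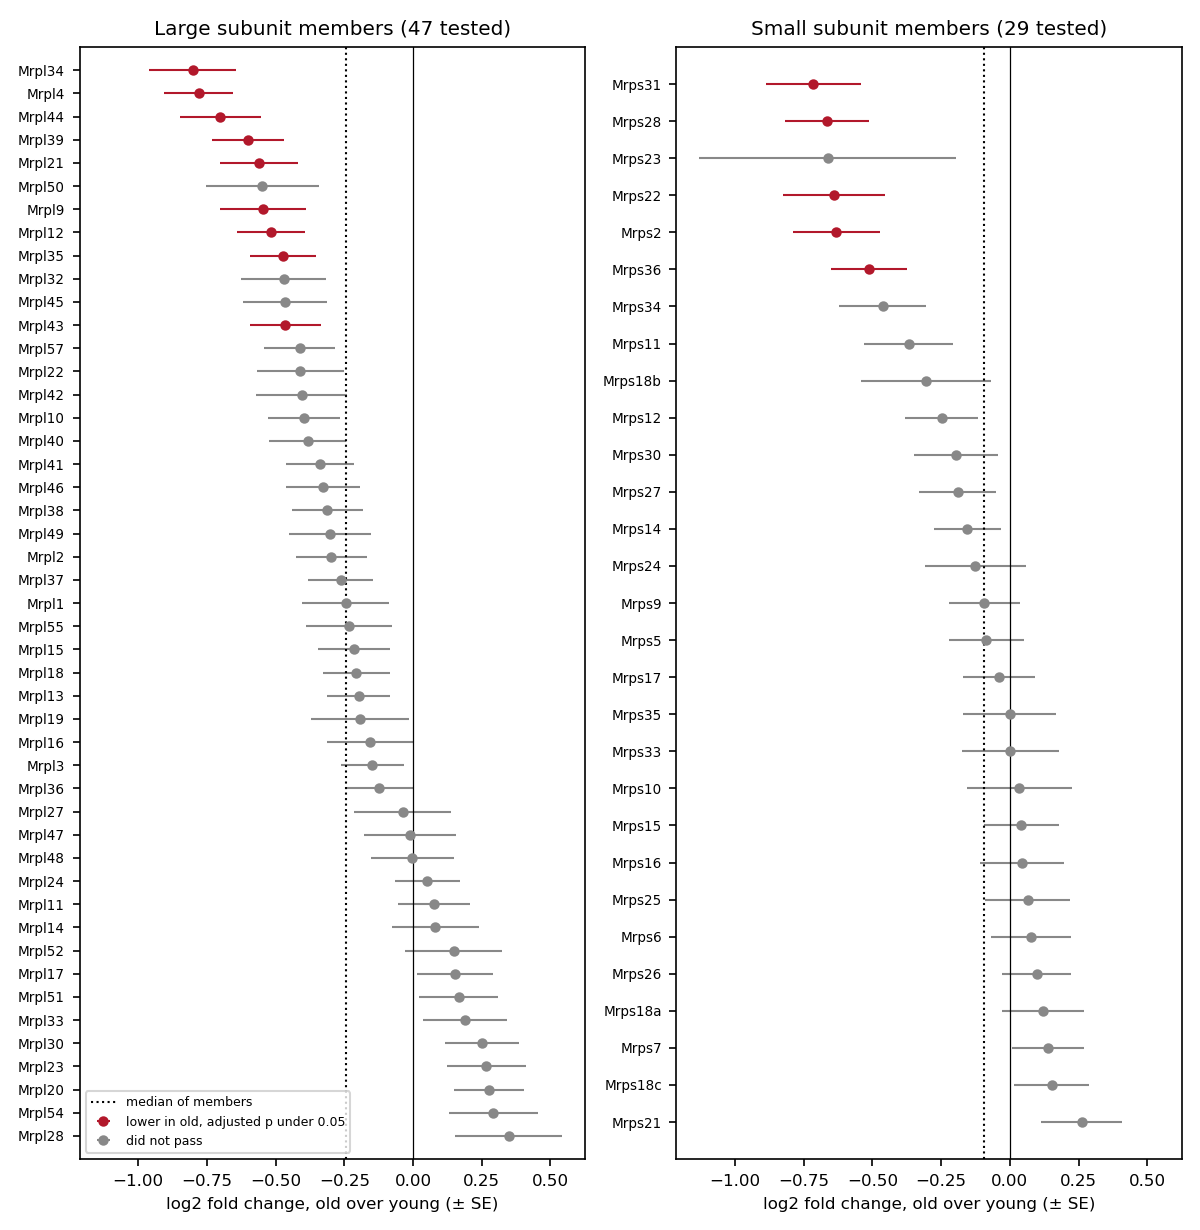
Log2 fold change, old over young, of each tested member, with the large and the small subunit apart and bars giving 1 SE from the edgeR fit of 3 old and 3 young libraries; red marks members called lower and the dotted line the median of the subunit. The 14 members called lower lie between −0.80 and −0.47, and no member to the right of 0 was called.

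Among the large subunit members, Mrpl4, the counterpart of a bacterial protein that lines the peptide exit tunnel, had the smallest adjusted p (ENSMUSG00000003299, chromosome 9, 21002738 to 21008839, GRCm38). Mrpl4 had 62.8, 60.6 and 51.8 CPM in old 1, 2 and 3, against 103, 96.3 and 101 CPM in young 1, 2 and 3. The groups were far from overlapping, with the lowest young library above the highest old library by more than the spread within either age. Its mean was 58.4 ± 5.81 CPM in old and 100.3 ± 3.71 CPM in young hearts (SD, n = 3 each; log2 fold change −0.78 ± 0.13, edgeR adjusted p = 0.00593). Mrpl34, a small protein of bacterial type, had 26.7, 37.4 and 26.6 CPM in old 1, 2 and 3, against 49.3, 54.5 and 54.4 CPM in young 1, 2 and 3 (ENSMUSG00000034880, chromosome 8, 71464959 to 71465747). Old 2 was the highest of the old libraries and still lay below each young library. Mrpl34 had the largest fall of all members (log2 fold change −0.80 ± 0.16, edgeR adjusted p = 0.0123).

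Mrpl44 carries an RNase III-like fold, and mutations of its human counterpart cause an infantile cardiomyopathy (ENSMUSG00000026248, chromosome 1, 79776018 to 79781445). Mrpl44 had 33.4, 26.2 and 25.7 CPM in old 1, 2 and 3, against 49.2, 41.7 and 47.9 CPM in young 1, 2 and 3. Old 1 was nearest to the young libraries, and the groups did not overlap (log2 fold change −0.70 ± 0.15, edgeR adjusted p = 0.0152). Mrpl39, a mitochondria-specific protein related to threonyl-tRNA synthetase, had 31.9, 29.6 and 25.8 CPM in old 1, 2 and 3, against 45.8, 44.2 and 42.4 CPM in young 1, 2 and 3. All 3 old libraries were low, with 29.1 ± 3.12 CPM in old and 44.1 ± 1.71 CPM in young hearts (SD, n = 3 each; log2 fold change −0.60 ± 0.13, edgeR adjusted p = 0.0172).

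Mrpl12 belongs to the stalk, the mobile arm that recruits translation factors to the ribosome, and it also binds the mitochondrial RNA polymerase. Mrpl12 had 50.6, 49.9 and 45 CPM in old 1, 2 and 3, against 75.5, 67.2 and 65.7 CPM in young 1, 2 and 3. The old libraries lay close together and apart from the young ones (log2 fold change −0.52 ± 0.12, edgeR adjusted p = 0.0243). The other stalk members did not pass: Mrpl10, which anchors the stalk, had a log2 fold change of −0.40 (edgeR adjusted p = 0.0674), Mrpl11, which forms the base of the stalk, 0.08 (0.724) and Mrpl54 0.29 (0.238).

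The remaining large subunit calls were Mrpl21, Mrpl9 and Mrpl35, of bacterial type, and Mrpl43, which is specific to mitochondria. Mrpl21 had 28.6, 25.8 and 21.1 CPM in old 1, 2 and 3, against 36.8, 37.2 and 37.3 CPM in young 1, 2 and 3 (log2 fold change −0.56 ± 0.14, edgeR adjusted p = 0.0298). Mrpl9 had 51, 42.5 and 35.5 CPM in old 1, 2 and 3, against 69.3, 57.7 and 61.3 CPM in young 1, 2 and 3 (log2 fold change −0.55 ± 0.16, edgeR adjusted p = 0.0445). In both genes old 3 was the lowest library, and no old library reached a young one. Mrpl35 had 26.5, 25 and 23.7 CPM in old 1, 2 and 3, against 35.3, 34.4 and 34.8 CPM in young 1, 2 and 3 (log2 fold change −0.47 ± 0.12, edgeR adjusted p = 0.03). Mrpl43 had 30.7, 31.2 and 27.2 CPM in old 1, 2 and 3, against 42.7, 43.1 and 37.2 CPM in young 1, 2 and 3 (log2 fold change −0.47 ± 0.13, edgeR adjusted p = 0.0403). These were the smallest falls among the called members, and the groups did not overlap in either gene.

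Of the small subunit, Mrps31, a mitochondria-specific protein of the head of the subunit, fell most. Mrps31 had 23.1, 15 and 17 CPM in old 1, 2 and 3, against 31.9, 28.7 and 30.0 CPM in young 1, 2 and 3. Old 1 was the highest of the old libraries, and the groups did not overlap (log2 fold change −0.72 ± 0.17, edgeR adjusted p = 0.0251). Mrps28 is of bacterial type and had 41.9, 35.1 and 30.1 CPM in old 1, 2 and 3, against 61.5, 50.9 and 57.5 CPM in young 1, 2 and 3. The old libraries were spread more widely than their distance to the lowest young one, young 2 (log2 fold change −0.67 ± 0.15, edgeR adjusted p = 0.0211).

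Mrps2, the counterpart of a bacterial small subunit protein, had 14.7, 14.5 and 14 CPM in old 1, 2 and 3, against 26.7, 19.5 and 20.8 CPM in young 1, 2 and 3. Its old libraries were nearly equal, and young 1 was the highest of the young ones (log2 fold change −0.63 ± 0.16, edgeR adjusted p = 0.0284). Mrps22, whose human counterpart is mutated in an early mitochondrial disease with cardiomyopathy, had 8.52, 6.1 and 8.09 CPM in old 1, 2 and 3, against 12.8, 11.1 and 11.6 CPM in young 1, 2 and 3. Its old and young libraries did not overlap, and its adjusted p was the closest of the called members to the threshold (log2 fold change −0.64 ± 0.19, edgeR adjusted p = 0.0466). Mrps36, now known as a subunit of the 2-oxoglutarate dehydrogenase complex of the citric acid cycle as well as a protein assigned to the ribosome, had 45.7, 49.9 and 39 CPM in old 1, 2 and 3, against 70.2, 62.1 and 59.7 CPM in young 1, 2 and 3. All 3 old libraries were below the young ones (log2 fold change −0.51 ± 0.14, edgeR adjusted p = 0.0362).

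**Figure D2:**
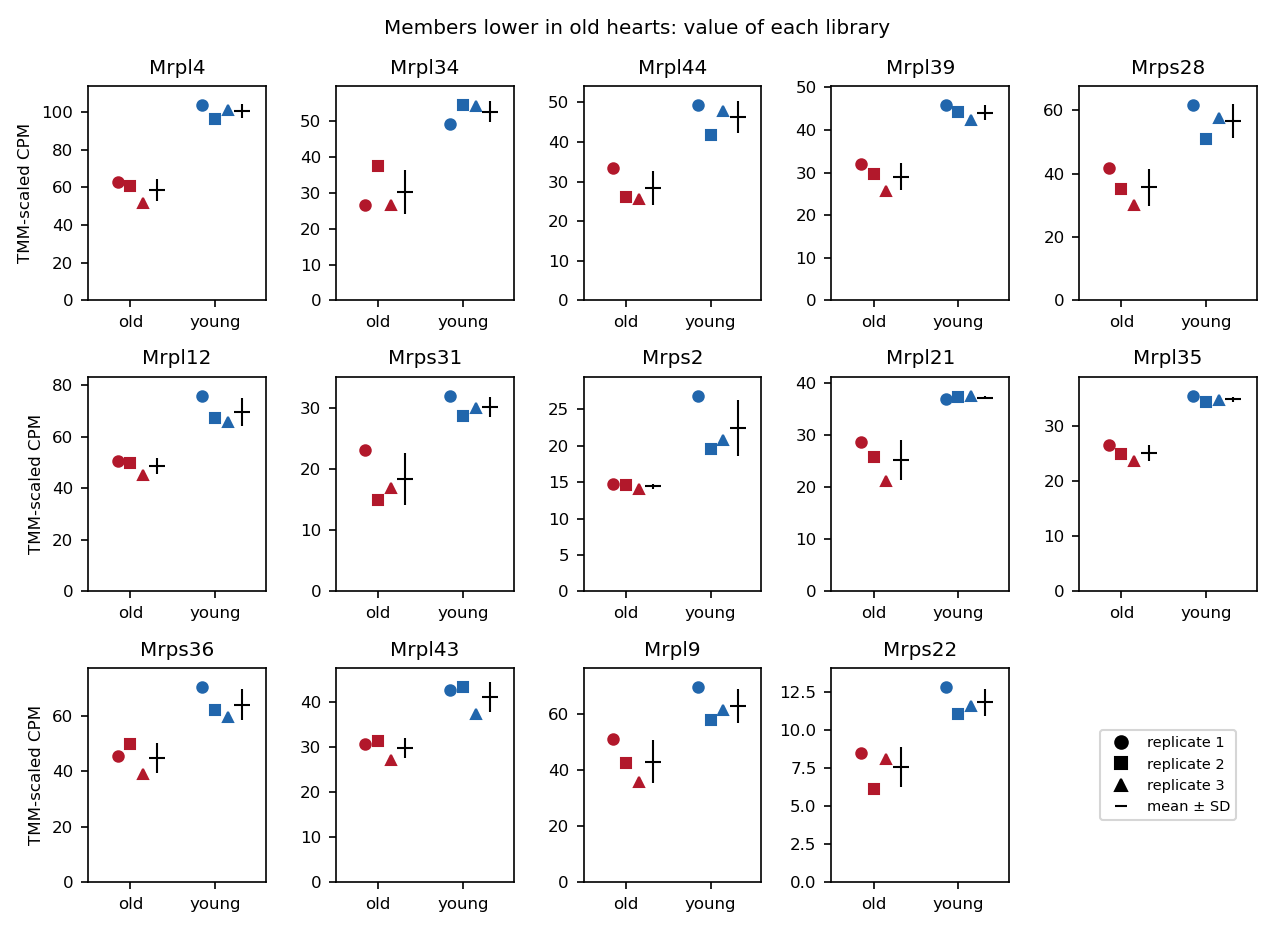
CPM of the 14 members called lower, 1 panel per gene, with each symbol 1 library, the old hearts (red) left of the young hearts (blue) and a black cross at the mean with its SD (n = 3 each). In every panel the highest old library lies below the lowest young library.

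The promoters of some of these genes are shown because the transcription factors NRF1, YY1 and the ETS factor GABPA are known to act on nuclear genes for mitochondria. RefSeq promoters (GRCm38.p6, 250 bases before to 50 bases after the start site) were found for 68 of the 77 member names, the others being Mrpl4, Mrpl13, Mrpl15, Mrpl19, Mrpl38, Mrpl54, Mrps28, Mrps34 and Mrps35. Capitals mark CGCATGCG (core of the NRF1 site), CCGGAAG (ETS factors) or AAGATGGC (YY1), searched on both strands, and each sequence reads 5′ to 3′ along the gene. Mrpl34 (chr8:71464676-71464975, plus strand) has CCGGAAG, Mrpl43 (chr19:45006393-45006692, minus strand) has it at 2 places, Mrpl9 (chr3:94443086-94443385, plus strand) and Mrpl39 (chr16:84735195-84735494, minus strand) have CGCATGCG, Mrpl35 (chr6:71823735-71824034, minus strand) has AAGATGGC, and Mrpl44 (chr1:79775768-79776067, plus strand) has none of the letters searched.
Mrpl34: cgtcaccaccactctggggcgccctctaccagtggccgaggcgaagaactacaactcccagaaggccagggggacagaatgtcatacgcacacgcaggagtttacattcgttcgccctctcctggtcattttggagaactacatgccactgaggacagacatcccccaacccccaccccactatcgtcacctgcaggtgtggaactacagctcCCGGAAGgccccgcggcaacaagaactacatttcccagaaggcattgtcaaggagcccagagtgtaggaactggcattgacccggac
Mrpl43: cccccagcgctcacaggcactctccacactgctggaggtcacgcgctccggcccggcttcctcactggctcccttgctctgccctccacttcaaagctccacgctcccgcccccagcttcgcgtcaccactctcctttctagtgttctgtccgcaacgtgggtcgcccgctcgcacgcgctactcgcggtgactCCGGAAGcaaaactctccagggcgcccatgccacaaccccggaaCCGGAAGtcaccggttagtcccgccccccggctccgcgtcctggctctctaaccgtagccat
Mrpl9: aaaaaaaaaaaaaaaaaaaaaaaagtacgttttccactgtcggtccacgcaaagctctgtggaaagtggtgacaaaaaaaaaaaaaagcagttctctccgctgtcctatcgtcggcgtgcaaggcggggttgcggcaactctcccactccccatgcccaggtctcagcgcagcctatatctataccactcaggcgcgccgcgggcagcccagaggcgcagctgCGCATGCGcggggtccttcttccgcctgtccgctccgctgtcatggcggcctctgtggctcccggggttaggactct
Mrpl39: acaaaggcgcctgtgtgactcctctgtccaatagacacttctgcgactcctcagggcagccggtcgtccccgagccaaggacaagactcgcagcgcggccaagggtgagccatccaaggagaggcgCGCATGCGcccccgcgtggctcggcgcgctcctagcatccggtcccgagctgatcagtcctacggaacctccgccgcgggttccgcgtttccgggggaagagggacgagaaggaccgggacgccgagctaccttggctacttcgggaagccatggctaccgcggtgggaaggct
Mrpl35: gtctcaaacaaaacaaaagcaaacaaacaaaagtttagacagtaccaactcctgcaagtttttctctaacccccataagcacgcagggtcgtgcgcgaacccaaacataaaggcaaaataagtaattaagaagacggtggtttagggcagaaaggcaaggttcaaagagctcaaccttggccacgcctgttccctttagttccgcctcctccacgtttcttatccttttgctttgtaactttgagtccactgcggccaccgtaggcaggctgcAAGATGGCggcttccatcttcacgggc
Mrpl44: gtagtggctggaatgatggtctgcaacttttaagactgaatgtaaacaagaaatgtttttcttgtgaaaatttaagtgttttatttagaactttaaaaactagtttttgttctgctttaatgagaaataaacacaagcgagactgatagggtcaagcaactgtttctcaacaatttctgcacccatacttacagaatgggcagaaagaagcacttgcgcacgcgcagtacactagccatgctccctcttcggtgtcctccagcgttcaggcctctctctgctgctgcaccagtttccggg

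The ETS letters CCGGAAG begin 37 bases before the start site in Mrpl34 and 56 and 12 bases before it in Mrpl43. The NRF1 core CGCATGCG begins 27 bases before the start of Mrpl9 and 124 bases before that of Mrpl39, and the YY1 letters AAGATGGC begin 23 bases after the start of Mrpl35. Over all members with a promoter, CCGGAAG was found in 25 (36.8%), against 18.9% of the 10219 tested genes with a promoter in the table and 9.93% of all 27025 genes in the table. AAGATGGC was in 12 members (17.6%), against 5.05% of tested genes and 3.19% of all genes. CGCATGCG was in 7 members (10.3%), against 4.21% of tested genes and 2.07% of all genes. By contrast, GGGCGG of the SP family stood in 34 members (50%), against 67.3% of tested genes and 38.2% of all genes, and TATAAA in 5 (7.35%), against 8.91% of tested genes and 15.7% of all genes. Members' promoters had a median GC content of 58.5%, against 60.7% for tested genes and 52.7% for all genes.

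Of the 12 called members with a promoter, 4 held the ETS letters (Mrpl34, Mrpl43, Mrpl21 and Mrps22), 2 the NRF1 core (Mrpl9 and Mrpl39) and 1 the YY1 letters (Mrpl35). GGGCGG stood in 3 of the 12 (Mrpl43, Mrps22 and Mrps36) and TATAAA in 0. Members with the ETS letters had a median log2 fold change of −0.09 and those without −0.23. For the NRF1 core the medians were −0.41 over 7 tested members with it and −0.15 over 60 without it, and for the YY1 letters −0.26 with and −0.15 without. A match is a description of the letters only, and none of these differences was tested.

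Members that did not pass lay on both sides of 0. Those with the largest positive values were Mrpl28, of bacterial type, Mrpl54 and Mrpl20, which in bacteria is an early assembly protein. Mrpl28 had 101, 178 and 133 CPM in old 1, 2 and 3, against 117, 105 and 103 CPM in young 1, 2 and 3. Only old 2 and old 3 were above the young libraries, and the difference did not pass (log2 fold change 0.35 ± 0.20, edgeR adjusted p = 0.247). Mrpl20 had 44.6, 55.2 and 49.5 CPM in old 1, 2 and 3, against 41.2, 41.8 and 40.3 CPM in young 1, 2 and 3, and Mrpl23 and Mrpl30 had the same order, with every old library above every young one. None of these 3 passed in edgeR, with log2 fold changes of 0.28 (adjusted p = 0.163), 0.27 (0.228) and 0.25 (0.224). Without old 1, Mrpl28, Mrpl54, Mrpl20 and Mrpl23 were called higher, in a fit with 2961 higher calls over all genes. In the small subunit the largest positive values were those of Mrps21 (log2 fold change 0.26 ± 0.15), Mrps18c (log2 fold change 0.15 ± 0.14) and Mrps7 (log2 fold change 0.14 ± 0.13). Mrps12, of the decoding site, had 33.8 ± 4.14 CPM in old and 40.2 ± 1.45 CPM in young hearts (SD, n = 3 each; log2 fold change −0.25 ± 0.13, edgeR adjusted p = 0.228).

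By origin, 8 of 46 members of bacterial type (17.4%) and 5 of 29 mitochondria-specific members (17.2%) were lower, in addition to Mrps36. Over all genes tested 6.36% were lower. Median log2 fold changes were −0.14 for the bacterial type and −0.31 for the mitochondria-specific members. All old libraries lay below all young ones for 12 of the 17 mitochondria-specific members named Mrpl (70.6%), against 13 of 30 bacterial-type ones (43.3%), a contrast that was not tested. The share with this order over all genes tested was 18.4%. Of 6 members listed at the opening of the peptide exit tunnel, a list without Mrpl4, 0 passed, with a median of 0.02. Among these, Mrpl22 and Mrpl45, which holds the ribosome at the inner membrane, had log2 fold changes of −0.41 and −0.47, whereas Mrpl23 and Mrpl24 had 0.27 and 0.05. In the central protuberance, where the large subunit faces the small one, 0 of 8 members passed, with a median of −0.22 and 7 of 8 below 0. The paralogues Mrps18a, Mrps18b and Mrps18c, of which a ribosome holds each at a different place, had log2 fold changes of 0.12, −0.30 and 0.15. Mrps30 and Mrps18a are built into the large subunit despite their names, and with both moved there 9 of 49 large and 5 of 27 small subunit members were lower. Both are mitochondria-specific, and in neither did all old libraries lie below all young ones.

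Per length, on the authors' FPKM scale, the members spanned a wide range, and the order given here is that of the mean over all 6 libraries. Mrpl42 had the highest level of the large subunit, at 247 ± 55.1 FPKM in old and 328 ± 20.1 FPKM in young hearts (mean ± SD, n = 3 each, as for the levels that follow). Mrpl52 came next, at 107 ± 26.7 FPKM in old and 96.4 ± 6.64 FPKM in young hearts, and then Mrpl28, at 103 ± 30.0 FPKM in old and 81.4 ± 6.22 FPKM in young hearts. In young hearts alone Mrpl14, at 84.4 FPKM, was above Mrpl28. In the small subunit Mrps21 was highest, at 101 ± 16.5 FPKM in old and 84.1 ± 6.69 FPKM in young hearts. It was followed by Mrps16, at 87.7 ± 16.8 FPKM in old and 85.3 ± 5.6 FPKM in young hearts, and Mrps24, at 55.2 ± 15.2 FPKM in old and 60.3 ± 2.25 FPKM in young hearts. In young hearts alone Mrps16 was above Mrps21, and Mrps28, at 69.4 FPKM, was above Mrps24. Neither subunit's 3 highest members by this order passed the test, and the old libraries had the larger SD for each of them. Mrps22, with 1.81 ± 0.296 FPKM in old and 2.84 ± 0.218 FPKM in young hearts, had the lowest mean over all 6 libraries of the members with a value on this scale, although Mrpl19 was lower in young hearts, at 2.37 ± 0.495 FPKM in old and 2.73 ± 0.138 FPKM in young hearts.

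The old libraries were not alike in their members' levels. Among the 3 old libraries, old 3 had the lowest CPM for 45 of 76 members, old 1 for 23 and old 2 for 8. Old 2 had the highest CPM of the 3 for 37 members, old 1 for 36 and old 3 for 3, and old 2 exceeded all 5 other libraries for 19 members. The median SD of log2 CPM over the members was 0.21 between old and 0.0934 between young libraries, against 0.259 between old and 0.131 between young libraries for all genes tested.

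**Figure D3:**
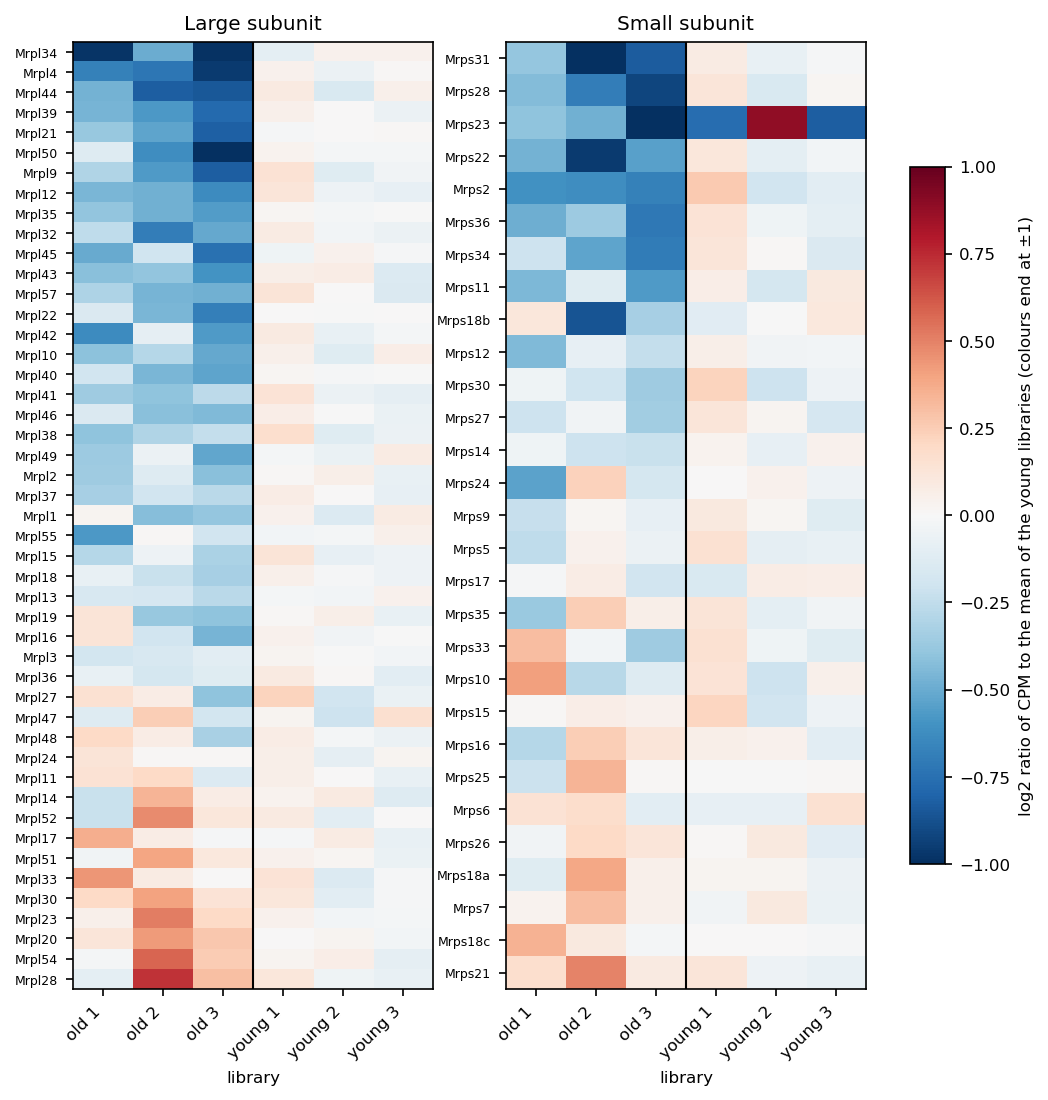
Log2 ratio of each library's CPM to the mean of the 3 young libraries, for the large and the small subunit, with members in rows ordered by fold change and the old libraries left of the young ones; blue is lower, red is higher, and the colours end at ±1. The top rows are blue in all 3 old columns, and in the row of Mrps23 young 2 lies far above every other library.

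Summed over the large subunit, the level was 2508, 2806 and 2381 CPM in old 1, 2 and 3, against 2959, 2765 and 2768 CPM in young 1, 2 and 3. The groups overlapped, because old 2 was above young 2 and young 3. Over the small subunit the sum was 1209, 1396 and 1203 CPM in old 1, 2 and 3, against 1410.1, 1311 and 1293 CPM in young 1, 2 and 3, and old 2 was again above young 2 and young 3. The ratio of the large to the small sum was 2.08, 2.01 and 1.98 in old 1, 2 and 3, against 2.1, 2.11 and 2.14 in young 1, 2 and 3. Mitochondrially encoded genes took 21.4, 18.4 and 27.6% of the counts in old 1, 2 and 3, against 25.5, 26.8 and 25.1% in young 1, 2 and 3. Old 2, with the highest sums of nuclear members among the old libraries, had the lowest share of mitochondrially encoded counts.

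**Figure D4:**
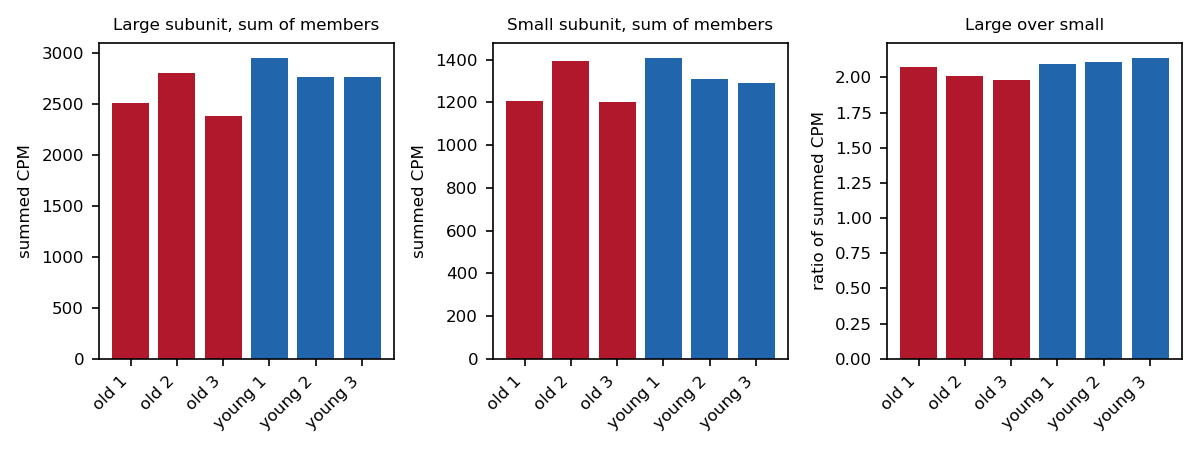
Bars give the summed CPM of the large subunit members, the summed CPM of the small subunit members and the ratio of these sums in each library, with old hearts (red) left of young hearts (blue). Old 2 lies among the young libraries in both sums, and old 1 and old 3 lie below all of them.

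The RNA partners of these proteins varied more between the old than between the young libraries. The small-subunit ribosomal RNA, mt-Rnr1, had 4143, 6751 and 7507 CPM in old 1, 2 and 3, against 4390.0, 3893 and 4175 CPM in young 1, 2 and 3. The large-subunit ribosomal RNA, mt-Rnr2, had 8598, 14279.7 and 16610.3 CPM in old 1, 2 and 3, against 8470.2, 7238 and 8038 CPM in young 1, 2 and 3. For mt-Rnr1, old 1 lay among the young libraries and the others above them, and for mt-Rnr2 all 3 old libraries lay above the young ones, old 1 by little. Neither gene passed (log2 fold change 0.56 ± 0.21, edgeR adjusted p = 0.0964 for mt-Rnr1 and log2 fold change 0.73 ± 0.22, edgeR adjusted p = 0.0546 for mt-Rnr2). Of all 15 mitochondrially encoded genes, 0 were lower and 1 was higher (6.67%), with a median log2 fold change of −0.23 over the list. Over all genes tested 6.36% were lower and 8.72% higher. The higher gene was mt-Nd3, a subunit of respiratory complex I (log2 fold change 0.60 ± 0.13, edgeR adjusted p = 0.016). mt-Nd3 was not called with the trend of gene length and GC content removed, nor without old 3, young 1, young 2 or young 3.

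Other genes of mitochondrial translation were read from lists for each step. Of 16 translation factors, 3 were lower (18.8%) and 0 higher, with a median of −0.29, against 6.36% lower and 8.72% higher over all genes tested. They were Gfm1, the elongation factor that moves the ribosome along the messenger RNA (log2 fold change −0.96 ± 0.19, edgeR adjusted p = 0.0129), Tsfm, which recycles the elongation factor Tufm (log2 fold change −0.62 ± 0.16, edgeR adjusted p = 0.0306), and Taco1, which activates translation of mt-Co1 (log2 fold change −1.02 ± 0.29, edgeR adjusted p = 0.0431). Gfm1 had 73.7, 49.4 and 46.2 CPM in old 1, 2 and 3, against 126, 108 and 97.3 CPM in young 1, 2 and 3, with no overlap between the ages. Translation factors called lower numbered 8 without old 1, 1 without old 2, 0 without old 3, 0, 0 and 1 without young 1, 2 and 3, and 1 with library totals alone. Lower calls over all genes in these fits were 2609, 603, 321, 184, 190, 226 and 624, in that order. Of 6 ribosomal proteins with names of another kind, 1 was lower (16.7%), Ptcd3, a small subunit protein (log2 fold change −0.51 ± 0.14, edgeR adjusted p = 0.0395). Next by p came Gadd45gip1, a large subunit protein that did not pass (log2 fold change −0.38 ± 0.12, edgeR adjusted p = 0.0663), and Ict1, the ribosome-rescue factor also known as Mrpl58, had a log2 fold change of 0.03.

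Of 28 assembly and ribosomal RNA modification genes, 2 were lower (7.14%) and 1 was higher (3.57%), with a median of −0.09. Over all genes tested 6.36% were lower and 8.72% higher. Mettl15, a methyltransferase of the small-subunit ribosomal RNA, was lower (log2 fold change −1.09 ± 0.27, edgeR adjusted p = 0.0258), and so was Yars2, which stood in this list but is a tyrosyl-tRNA synthetase (log2 fold change −0.56 ± 0.16, edgeR adjusted p = 0.0469). Mterf3, a repressor of mitochondrial transcription that also acts in ribosome assembly, was higher (log2 fold change 0.90 ± 0.18, edgeR adjusted p = 0.0133). Mterf3 had 44.9, 68.7 and 72.1 CPM in old 1, 2 and 3, against 34.6, 30.6 and 34.1 CPM in young 1, 2 and 3. Transcription and RNA processing genes were lower in 3 of 22 (13.6%, namely Mterf2, Grsf1 and Trmt10c) and higher in 1 (4.55%, Pnpt1), with a median of −0.03. Among 21 genes listed for mitochondrial aminoacyl-tRNA synthesis, a list without Yars2, 1 was lower (4.76%), with a median of −0.14 over the list. The lower gene was Qrsl1, a subunit of the enzyme that makes glutaminyl-tRNA (log2 fold change −0.79 ± 0.14, edgeR adjusted p = 0.00922). With 1 library left out, lower genes ran from 0 to 4 for assembly, 0 to 6 for transcription and processing and 0 to 5 for the synthetase list. Higher genes ran from 0 to 2, 0 to 3 and 0 to 3, in that order. Over all genes in these fits, lower calls ran from 184 to 2609 and higher calls from 350 to 2961.

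Genes for proteins of the cytosolic ribosome, which translates the members' own messenger RNAs, mostly had values of the other sign. Below 0 were 4 of these 77 genes, whereas 23 of the 76 tested members were above 0. Of 77 cytosolic ribosomal protein genes, 45 were higher (58.4%) and 0 were lower, with a median of 0.54, against 14 lower and 0 higher among the 76 mitochondrial ones. Over all genes tested 8.72% were higher and 6.36% lower. Leaving out 1 library moved the number of cytosolic genes called higher to between 5 (without young 2) and 64 (without old 1). It was 23 without old 2, 25 without old 3, 6 without young 1 and 7 without young 3. Higher calls over all genes, 1257 with every library, were 350 without young 2 and 2961 without old 1. The median of the cytosolic genes was between 0.45 and 0.61 with 1 library left out and above 0 under each scaling tried. With every library in use, 29 were higher on log2(FPKM + 1), 29 with a replicate block and 58 in DESeq2. Higher calls over all genes in these fits were 841, 1038 and 1543. Cytosolic genes called lower ran from 0 to 1 over the fits with every library and from 0 to 3 with 1 left out. In 81.8% of the cytosolic genes all old libraries lay above all young ones, against 3.95% of the mitochondrial members and 18.8% of all genes tested.

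**Figure D5:**
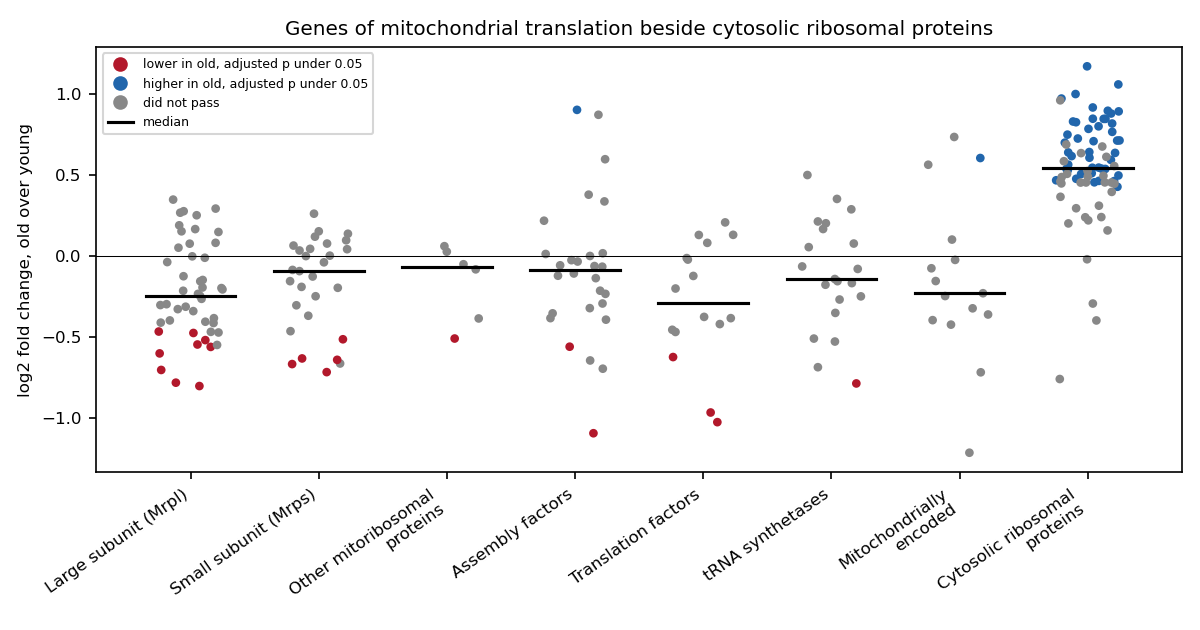
Log2 fold change, old over young, of every tested gene in each list, with 1 point per gene, red where called lower, blue where called higher and grey where not passed, and a line at the median. Cytosolic ribosomal proteins lie mostly above 0, with a median of 0.54, and the large subunit members mostly below it, with a median of −0.25.

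Some members share exon bases with another gene in the GENCODE M21 annotation (GRCm38), and the sources used here do not give the strand setting of the counting. Of the called members, Mrpl43 shared 33.4% of its exon bases with the gene for the mitochondrial helicase Twinkle (Peo1) on the opposite strand, and Peo1 had a log2 fold change of 0.00. Overlaps on the opposite strand covered 13.1% of Mrpl12, 7.66% of Mrpl44, 5.82% of Mrpl21 and 5.81% of Mrpl9. Values of these 5 genes are therefore uncertain in this respect. Among members that were not called, the overlap on the opposite strand was 69.8% for Mrps25 with Nr2c2 and 63.4% for Mrps34 with Mapk8ip3, and Mapk8ip3 itself was higher in old hearts (0.84 ± 0.23, edgeR adjusted p = 0.0395). Mrps34 also shared 37.0% with Nme3 on the same strand, and Nme3 had 0 counts in all 6 libraries. Mrps6 shared 19.9% with Gm49711 and 10.4% with Slc5a3, both on the same strand, and had a log2 fold change of 0.08. Gm49711 was not among the gene models counted.

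Not tested were Mrpl53 and 1 of 2 gene models named Mrps23 (ENSMUSG00000023723), each with 0 counts in all 6 libraries. A count of 0 allows a level of up to 3 counts, which is between 0.184 and 0.223 CPM depending on the library, for counting error only. This limit does not cover how reads were assigned among gene models that share bases or a name. Mrpl53 shares 88.0% of its exon bases with another gene on the same strand, which the count table names Ccdc142. The other Mrps23 model (ENSMUSG00000098375) had 3.98, 3.76 and 2.15 CPM in old 1, 2 and 3, against 3.09, 9.7 and 2.96 CPM in young 1, 2 and 3. Young 2 stood apart there, and the difference did not pass (log2 fold change −0.66 ± 0.47, edgeR adjusted p = 0.353).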

How the data were processed

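Hearts of 3 old (22 months) and 3 young (2 months) mice were profiled by bulk RNA-seq. The authors deposited raw counts per gene model and a table of FPKM values, per the file headers. HISAT2, featureCounts, Subread and the build GRCm38.p6 are listed in the submitters' processing notes, without versions and without the strand setting of the counting. The deposited counts of 43629 named gene models were fitted with edgeR 4.0.16 (quasi-likelihood test, TMM factors, filterByExpr, R 4.3.3). The 571 models without a name, 0.295% to 0.369% of the counts in a library, stayed out of library sizes and tests. P-values were adjusted over 14413 genes at 0.05. A fold change is old over young and ± beside it is its SE. The biological coefficient of variation was 0.187. On simulated data with known fold changes the fit was checked before use. DESeq2 1.42.0, limma 3.58.1 (voom, and trend on log2 of FPKM plus 1 or 0.1) and other factors and filters served as alternatives. FPKM covered 13170 genes and 76 members. Exon overlaps came from GENCODE M21, in which 2 member IDs (Mrps23, Mrpl33) were not found, and promoters from RefSeq.

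Members and gene lists were chosen with earlier results of these data known. Genes named in the text are the called members, the 3 of each subunit with the highest mean FPKM, the 3 with the largest fold change each way, members at sites fixed by role, and the genes of each list with the smallest p. Members with 0 counts were left untested, and the limit given for them covers counting error only. Whether depth or the assignment of reads to gene models left them at 0 was not tested. No batch is named in the labels.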

Additional observations from a re-analysis of the deposited data

How the results depend on the processing

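The 14 members kept their direction in all 20 alternatives, and 8 of them (Mrpl34, Mrpl4, Mrps31, Mrpl44, Mrps28, Mrps2, Mrpl39 and Mrpl12) also kept their call in all 14 that used every library. Scaling by library totals alone left 5 large and 3 small subunit members lower, and gave 1400 higher and 624 lower calls over all genes, against 1257 and 917 with TMM factors. DESeq2 and limma-voom each called 14 members. Upper-quartile factors gave 12 large and 5 small, with 1082 lower calls over all genes. With gene length and GC content regressed out of each library, an alternative added after seeing the data, 13 large and 6 small subunit members were lower. Lower calls over all genes were 1111 in that fit.

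Leaving out 1 library at a time changed the counts most. The calls over all genes ranged from 539 to 5570, the large subunit members lower from 1 to 22 and higher from 0 to 4, and the small subunit members lower from 0 to 7. The median log2 fold change ranged from −0.30 to −0.21 for the large and from −0.16 to −0.07 for the small subunit. The cause of this dependence was not tested. Mrpl4 kept its call in each of these fits, with edgeR and other adjusted p from 8.86e-06 to 0.0422 over all alternatives, and each of the other 13 lost it in at least 3 of the 6. Ppargc1a kept its call in all 20, whereas Gfm1 kept it in 3 of these 6, Myc and Qrsl1 in 5, Mterf3 and mt-Nd3 in 2, and Gabpb1, Pprc1, Tsfm, Taco1, Ptcd3, Mettl15 and Yars2 in 1. Mterf2 kept it in 3 of these 6, Pnpt1 in 2, and Grsf1 and Trmt10c in 1. With every library in use, mt-Nd3 lost its call once length and GC content were regressed out, Tsfm, Taco1, Ptcd3, Yars2 and Trmt10c with library totals alone, Gabpb1, Pprc1 and Pnpt1 on the FPKM values, and Pprc1, Pnpt1, Yars2 and Trmt10c with the replicate block. Pnpt1 also lost its call with upper-quartile factors and with limma-voom, and Pprc1 with no filter on low counts.

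Deviations from the group mean correlated at −0.0867, −0.0697 and 0.0332 between same-numbered old and young libraries, and none correlated best with its own number. With 3 libraries per age, each a part of its own group mean, these correlations cannot decide whether same-numbered libraries share a batch. With a replicate block 7 large and 3 small subunit members were lower, and 1774 genes were called, 736 of them lower.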

Other observations

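Among 13 regulators of nuclear genes for mitochondria, 1 was lower (7.69%) and 3 were higher (23.1%) in old hearts. Over all genes tested 6.36% were lower and 8.72% higher. Ppargc1a, a coactivator of such genes, had 36, 28.9 and 32.3 CPM in old 1, 2 and 3, against 73.3, 59.2 and 66.2 CPM in young 1, 2 and 3. It fell in old hearts without overlap (log2 fold change −1.03 ± 0.14, edgeR adjusted p = 0.00315). Gabpb1, a partner of the ETS factor GABPA, was higher (log2 fold change 0.79 ± 0.20, edgeR adjusted p = 0.0294), as were Pprc1, a relative of Ppargc1a (log2 fold change 0.51 ± 0.13, edgeR adjusted p = 0.0342), and the transcription factor Myc (log2 fold change 1.46 ± 0.27, edgeR adjusted p = 0.0101). Gabpa had a log2 fold change of −0.10, Nrf1 0.29 and Yy1 −0.07, and none of these 3 passed.

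Pseudogene copies of members drew few counts. Mrpl23-ps1 had 105, 95 and 80 counts in old 1, 2 and 3, against 76, 101 and 112 counts in young 1, 2 and 3. Mrps36-ps1 had 19, 17 and 12 counts in old 1, 2 and 3, against 23, 24 and 13 counts in young 1, 2 and 3, where the parent gene Mrps36 was called. The handling of reads shared by a gene and its copy is not stated in the labels.

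Mrps11 and Mrpl46 lie back to back on chromosome 7 and share 173 exon bases on opposite strands. Mrps11 had 16.2, 20.2 and 14.8 CPM in old 1, 2 and 3, against 23, 19.5 and 23.6 CPM in young 1, 2 and 3 (log2 fold change −0.37 ± 0.16, edgeR adjusted p = 0.149). Mrpl46 had 28.2, 23.3 and 22.9 CPM in old 1, 2 and 3, against 32.5, 31.1 and 29.7 CPM in young 1, 2 and 3 (log2 fold change −0.33 ± 0.14, edgeR adjusted p = 0.128). Neither passed, and both had a negative value of similar size.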
